A study of Mus musculus with 6 samples.

Results

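Foxp3 and 7 transcription factors known to work with it (Ikzf2, Ikzf4, Runx1, Runx3, Cbfb, Foxo3 and Ets1) were examined in regulatory T cells (Treg) of the mouse, isolated as CD4+CD25+, from animals that lacked the deacetylase HDAC6. The members are 8 of the 12393 genes that the arrays measured, chosen by name with earlier results of these data known. Every probe set whose platform annotation names 1 of them alone was taken, which gave 18 of the 22690 deposited probe sets. Runx1 had 5 probe sets, Ets1 had 4, Foxo3 had 3 and Ikzf4 had 2, and Foxp3, Ikzf2, Runx3 and Cbfb had 1 each.

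The series holds 6 one-colour arrays. In 3 the RNA came from Treg of HDAC6 knock out mice, for which no strain is labelled, and in 3 from Treg of wild type C57BL6 mice. The cells had been separated magnetically by CD4 and CD25 and are described as independent samples. The sources used here do not give sex, age, treatment, the tissue the cells came from, the way the allele was made or whether a sample was 1 mouse or a pool, and the number of arrays limits the precision. In bulk RNA, fewer cells of a type and less RNA per cell cannot be told apart.

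As background, Foxp3 is the forkhead factor that defines Treg, and it acts in large complexes. Runx1 and Runx3 bind DNA through a runt domain, pair with Cbfb, which does not bind DNA itself, and serve both as partners of the Foxp3 protein and as activators of the Foxp3 gene. Ikzf2 (Helios) and Ikzf4 (Eos) are zinc finger proteins of the Ikaros family, of which Eos is known as a co-repressor with Foxp3. Foxo3 and Ets1 act mainly upstream, at the regulatory elements of the Foxp3 gene. HDAC6 removes acetyl groups from proteins, among them tubulin and the chaperone HSP90, and acetylation of the Foxp3 protein is known to affect its stability, which an mRNA array does not measure.

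Because most of the members belong to families that bind DNA at known core motifs, RefSeq windows from 250 bases before to 50 bases after a gene's start (build GRCm38.p6) were searched on both strands. The motifs were TGTGGT for RUNX factors, TGTTTAC for forkhead factors, CGGAAG for ETS factors and TGGGAA for Ikaros factors. Of the members, 5 matched a window (8 windows in all). The first Foxp3 window holds 1 Ikaros motif and none of the other motifs, and the second Foxp3 window holds none of the 4. Of 32851 promoter windows, 25.6% hold the Ikaros motif, 16.8% the RUNX motif, 16.9% the ETS motif and 3.65% the forkhead motif. A window each of Runx1 and Runx3 holds 2 RUNX motifs spaced alike, just after the annotated start in Runx1 and before it in Runx3. This tandem pair was found in 4 of the 32851 windows, those of Runx1, Runx2, Runx3 and Gm16225. The first 280 bases of the first Foxp3 window (chrX:7579426-7579705, plus strand) are shown because the partners act on this gene, and the stretches from Runx1 (chr16:92826025-92826054, minus strand) and Runx3 (chr4:135120503-135120532, plus strand) because they share the pair. Capitals mark motifs, read here on the strand opposite to the motif as spelled above. A match is a description of the letters and not a binding site. Only these exact strings were searched, so a window without a match can still hold other forms of a family's motif.
Foxp3: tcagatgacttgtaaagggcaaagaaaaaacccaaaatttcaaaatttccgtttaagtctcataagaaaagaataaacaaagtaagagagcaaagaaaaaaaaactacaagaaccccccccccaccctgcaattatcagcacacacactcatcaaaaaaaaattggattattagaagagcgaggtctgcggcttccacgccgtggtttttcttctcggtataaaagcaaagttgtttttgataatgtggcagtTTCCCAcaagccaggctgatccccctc
Runx1: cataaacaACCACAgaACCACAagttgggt
Runx3: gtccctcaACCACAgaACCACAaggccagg

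Values are log2 values after RMA, a procedure that corrects background, aligns the arrays and summarizes the probes of a set. Probe sets differ in how brightly their probes bind, so a brighter or dimmer probe set says nothing of how abundant a transcript is, and these words only tell the probe sets of 1 gene apart. The lower quartile of an array lay between 4.14 and 4.25 and its median between 6.22 and 6.27. The Hdac6 probe set read 7.54, 7.86 and 7.64 in HDAC6 knockout and 8.54, 8.23 and 8.42 in wild type (log2 difference -0.71, SE 0.11, limma's adjusted p = 0.0875). Where the deletion lies within the gene is not stated in the labels, so the probe set does not check them. Markers of the labelled cell type read above the arrays' medians. Cd3e lay between 11.81 and 12.04, Cd4 between 9.63 and 10.01 and Il2ra (CD25) between 9.28 and 9.64 over the 6 arrays.

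None of the members' probe sets changed past the threshold. In limma's fit across all 22626 probe sets that are not controls, 0 of 18 had an adjusted p under 0.05 (the lowest was 0.348), against 0.194% of all probe sets. At an unadjusted p under 0.05 there were 2 of 18 (11.1%), against 10.6% of all probe sets, and the genotypes did not overlap for 3 of 18 (16.7%), against 17.2% of all probe sets. All 3 were lower in HDAC6 knockout, where 9.48% of all probe sets were lower without overlap. The members' shares at an unadjusted p and without overlap in either direction thus lay near the background. An unmoderated test called 0 of 18 as well, with 0 at an unadjusted p under 0.05. The probe sets behind these counts were all of Ets1. Of the 18 differences 7 were above and 11 below 0, with a median of -0.02, where the median over all probe sets was 0.00.

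**Figure D1:**
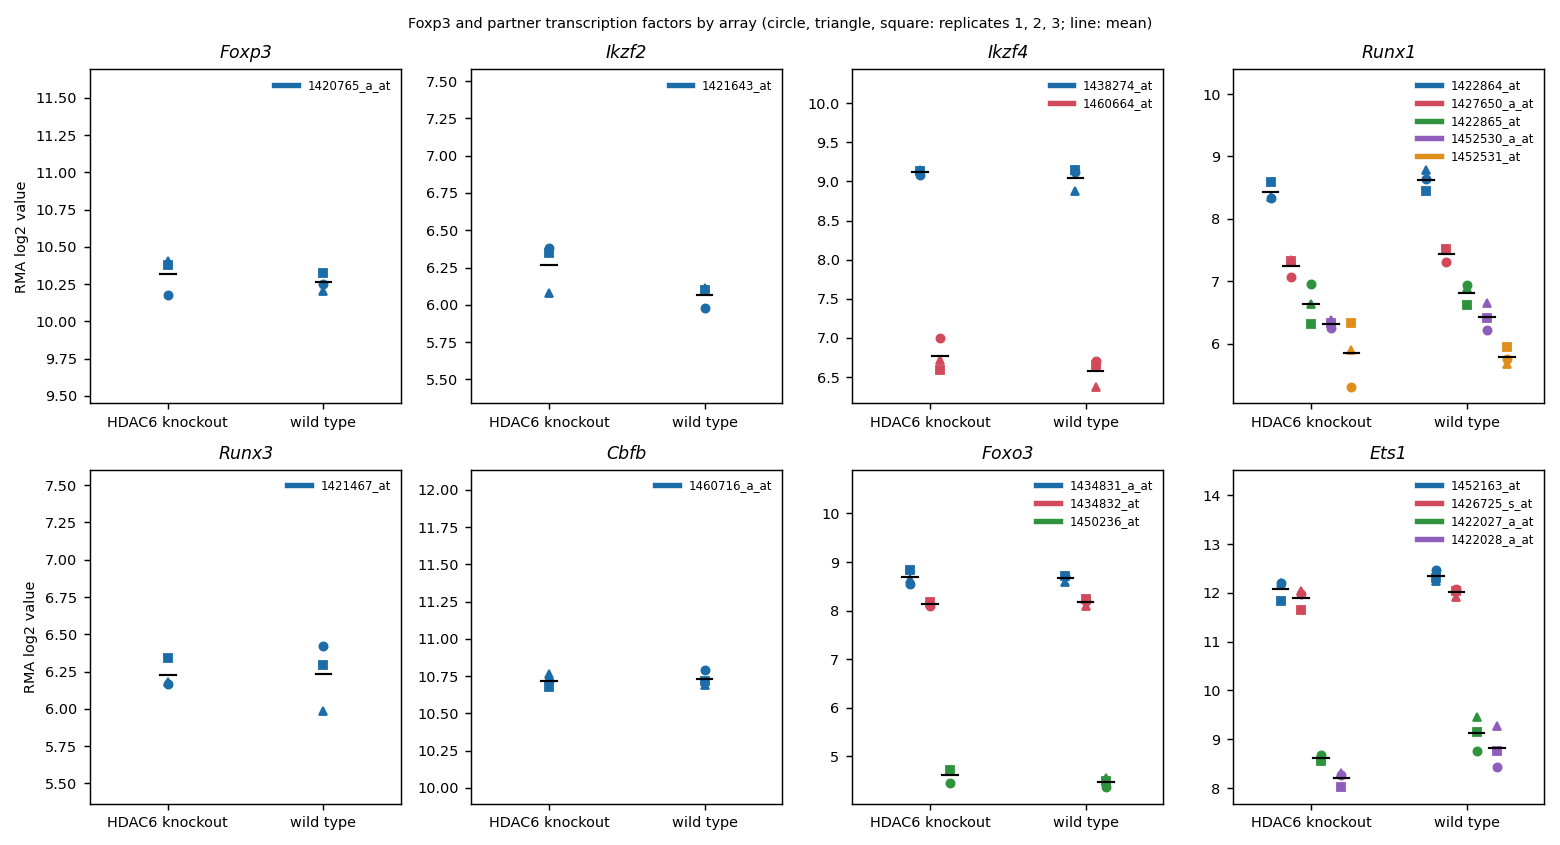
RMA log2 values (vertical axis, a different range in each panel) of the 18 member probe sets in HDAC6 knockout and wild type arrays, 3 each, with 1 colour per probe set and a black line at the mean of a genotype. The genotypes overlap in every panel other than Ets1, where 3 of the 4 probe sets are lower on every knockout array.

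Foxp3 was expressed at nearly the same level in both genotypes. Its probe set (1420765_a_at) read 10.18, 10.40 and 10.38 in HDAC6 knockout and 10.25, 10.21 and 10.33 in wild type. Knockout replicate 1 gave the lowest value of all and the other knockout arrays the 2 highest, so the genotypes overlapped. The interval of the difference ran from -0.14 to 0.26, which corresponds to 0.906 to 1.19 times the wild type level. With 1 array left out it lay between 0.015 (knockout replicate 2 omitted) and 0.13 (knockout replicate 1 omitted). The spread of Foxp3 within genotypes (pooled SD 0.10) was at the 35.9th percentile of all probe sets.

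The Ikaros family partners were slightly higher in HDAC6 knockout without passing the test. Ikzf2, whose product Helios marks most Treg that arise in the thymus, read 6.38, 6.08 and 6.35 in HDAC6 knockout and 5.98, 6.11 and 6.10 in wild type. Knockout replicates 1 and 3 lay above every wild type array and knockout replicate 2 among them. The difference was 0.20 (SE 0.10, interval -0.03 to 0.44, limma's adjusted p = 0.540).

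Ikzf4, which encodes Eos, read 9.09, 9.15 and 9.13 in HDAC6 knockout and 9.12, 8.88 and 9.14 in wild type at its brighter probe set (1438274_at). The 3 knockout values nearly coincided, and wild type replicate 2 was the low one. The difference of 0.08 (SE 0.09, limma's adjusted p = 0.807) was -0.01 without wild type replicate 2. At the dimmer probe set (1460664_at) the values were 7.00, 6.71 and 6.60 in HDAC6 knockout and 6.70, 6.38 and 6.65 in wild type. Knockout replicate 1 was highest and wild type replicate 2 lowest there, the genotypes overlapped, and the difference of 0.19 (SE 0.13, limma's adjusted p = 0.662) shrank to 0.08 when knockout replicate 1 was omitted. Omitting wild type replicate 2, the lowest array at both probe sets, gave 0.09.

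Runx1, the runt factor best known from blood formation, was lower in HDAC6 knockout at 4 of its 5 probe sets, none past the threshold. The brightest (1422864_at) read 8.34, 8.35 and 8.59 in HDAC6 knockout and 8.64, 8.79 and 8.45 in wild type, a difference of -0.20 (SE 0.11, limma's adjusted p = 0.601). Knockout replicate 3 lay above wild type replicate 3, so the genotypes overlapped. The next (1427650_a_at) read 7.07, 7.34 and 7.33 in HDAC6 knockout and 7.30, 7.50 and 7.51 in wild type, a difference of -0.19 (SE 0.10, limma's adjusted p = 0.580). Wild type replicates 2 and 3 were above every knockout array. Probe sets 1422865_at and 1452530_a_at differed by -0.18 (SE 0.17) and -0.10 (SE 0.11), the first ranging between -0.34 (knockout replicate 1 omitted) and -0.01 (knockout replicate 3 omitted), and the second changing sign to 0.01 without wild type replicate 2. The brighter pair also lay closer to 0 with 1 array omitted, at -0.12 for 1422864_at (wild type replicate 2) and at -0.10 for 1427650_a_at (knockout replicate 1). The dimmest (1452531_at) differed by 0.06 (SE 0.24) and was the least precise member value. It read 5.31, 5.89 and 6.33 in HDAC6 knockout, a spread wider than the 5.75, 5.67 and 5.95 in wild type. Probe sets 1422864_at and 1422865_at are annotated with the same sequence, as are 1452530_a_at and 1452531_at, so the 5 are not independent measurements.

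Runx3, the runt factor prominent in CD8 T cells and natural killer cells, had overlapping genotypes and a difference close to 0. It read 6.17, 6.18 and 6.34 in HDAC6 knockout and 6.42, 5.98 and 6.29 in wild type. Wild type held both the highest and the lowest array. The difference was -0.0033 (SE 0.12, interval -0.29 to 0.28, limma's adjusted p = 0.997). Natural killer cell markers were at a list mean of 7.02 to 7.39 in HDAC6 knockout and 7.21 to 7.47 in wild type. All 5 measured markers were lower in the knockout, the genotypes overlapped for each, and 0 passed the threshold. Of the CD8 T cell markers, Cd8a differed by 0.25 and Cd8b1 by -0.37, neither past the threshold.

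Cbfb, the subunit shared by the runt factors, was the steadiest member. It read 10.72, 10.76 and 10.68 in HDAC6 knockout and 10.79, 10.69 and 10.72 in wild type, a range of 0.11. Its pooled SD of 0.05 was at the 7.46th percentile of all probe sets. The interval of its difference, -0.17 to 0.14, corresponds to 0.888 to 1.10 times the wild type level (limma's adjusted p = 0.965).

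Foxo3, a forkhead factor that is kept out of the nucleus by growth factor signals, likewise gave no difference past the threshold at any of its 3 probe sets. The brightest (1434831_a_at) read 8.55, 8.66 and 8.83 in HDAC6 knockout and 8.71, 8.58 and 8.71 in wild type, a difference of 0.02 (SE 0.09). Knockout replicates 1 and 3 were the lowest and the highest of the 6 arrays. The second (1434832_at) read 8.10, 8.15 and 8.18 in HDAC6 knockout and 8.20, 8.09 and 8.24 in wild type, a difference of -0.03 (SE 0.07). The dimmest (1450236_at) differed by 0.15 (SE 0.10, limma's adjusted p = 0.640) at a mean of 4.55, near the arrays' lower quartile, where a level is hard to tell from background.

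Ets1, a factor of T and B cells with an ETS domain, was the member with the largest differences. All 4 of its probe sets were lower in HDAC6 knockout. Probe set 1422028_a_at read 8.26, 8.31 and 8.02 in HDAC6 knockout and 8.44, 9.27 and 8.76 in wild type. Every knockout array lay below every wild type array, and wild type replicate 2 was highest. The difference was -0.62 (SE 0.20, interval -1.10 to -0.14), or 1.54-fold lower, with limma's adjusted p at 0.348. Without wild type replicate 2 it was -0.40.

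A second Ets1 probe set (1422027_a_at) read 8.68, 8.60 and 8.56 in HDAC6 knockout and 8.75, 9.46 and 9.16 in wild type. The genotypes did not overlap, although knockout replicate 1 and wild type replicate 1 lay close together. The difference was -0.51 (SE 0.17, interval -0.91 to -0.11, limma's adjusted p = 0.349) and -0.34 without wild type replicate 2. These probe sets are annotated with the same cDNA, so they are not independent measurements.

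The brightest Ets1 probe set (1452163_at) read 12.21, 12.21 and 11.84 in HDAC6 knockout and 12.47, 12.24 and 12.31 in wild type. The genotypes did not overlap, by a small margin, and knockout replicate 3 was the low one. The difference was -0.25 (SE 0.12, interval -0.54 to 0.03, limma's adjusted p = 0.526), and without knockout replicate 3 it was -0.13. The remaining probe set (1426725_s_at), annotated with the same transcript as the brightest, read 11.97, 12.05 and 11.65 in HDAC6 knockout and 12.09, 11.91 and 12.03 in wild type. The genotypes overlapped there, and the difference of -0.12 (SE 0.12, limma's adjusted p = 0.764) was -0.0015 without knockout replicate 3. These probe sets lay at percentiles 98.7 and 98.3 of mean level. Whether differences are compressed at such levels was not tested.

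Ets1 is also expressed by B cells, and B cell markers differed among themselves. Ms4a1, which encodes CD20, read 7.40, 8.11 and 7.96 in HDAC6 knockout and 9.04, 9.44 and 8.38 in wild type (difference -1.13, limma's adjusted p = 0.236). Ms4a1 was thus lower on every knockout array and highest on wild type replicate 2, as were the dimmer Ets1 probe sets. The order of the other wild type arrays differed. Ms4a1 was higher on replicate 1 than on replicate 3, and these Ets1 probe sets were lower on replicate 1 than on replicate 3. The whole B cell list had 4 of its 7 measured genes above and 3 below wild type, with list means of 6.83 to 7.39 in HDAC6 knockout and 7.21 to 7.50 in wild type. The B cell list as a whole was highest on wild type replicate 1, unlike these Ets1 probe sets. The myeloid list was highest on wild type replicate 2 (5.48, 5.89 and 6.03 on the knockout arrays, and 5.85, 6.58 and 5.79 on the wild type arrays). The part of other cells in the Ets1 values was not tested.

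**Figure D2:**
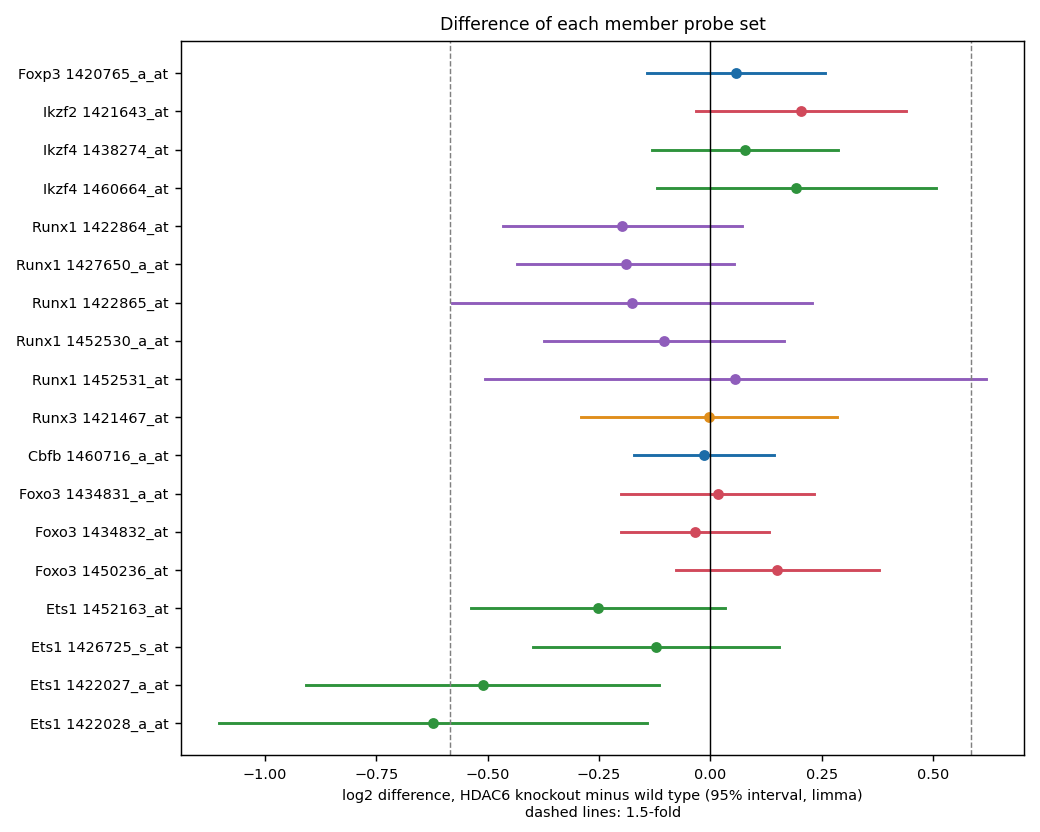
Log2 difference (horizontal axis, HDAC6 knockout minus wild type) of each member probe set with its 95% interval from limma, and dashed lines at 1.5-fold in either direction. The intervals of the bottom 2 Ets1 probe sets leave out 0, and those of the other 16 include it.

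The intervals show how far the measured values could differ. For 15 of the 18 probe sets the 95% interval lay within a 1.5-fold change in either direction, and for 17 within a 2-fold change, with 1422028_a_at of Ets1 as the exception. For 6 of the 8 genes every probe set lay within 1.5-fold, and the others were Ets1 and Runx1. These limits are on the RMA scale, which compresses changes of dim probe sets. The dimmest of these was the Foxo3 probe set 1450236_at, at a mean of 4.55. The only probe sets of Ikzf2 and Runx3 had means of 6.17 and 6.23, near the arrays' medians.

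The pattern of Foxp3 over the 6 arrays, low on knockout replicate 1 and high on the other knockout arrays, was closest to those of Glis2 (Pearson's r = 0.98), Fbxo36 (0.98), Tecpr1 (0.98), Sec61a1 (0.97) and Trrap (0.96). These were the closest of 6859 probe sets that name 1 other gene, have a mean of at least 6 and vary at least as much as Foxp3. With 56 of them above 0.9 over 6 arrays, the likeness is a description of these arrays. None of the 5 differed between genotypes past the threshold (differences from 0.09 to 0.15).

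Around the members, 5 lists of genes tied to Foxp3 were read at the brightest probe set of a gene. Of the 108 listed genes 93 had a probe set that names them alone, and 0 of the 93 passed the threshold over all probe sets, against 0.169% of the 12393 genes. At an unadjusted p under 0.05 there were 23 (24.7%), against 11.2% of all genes, and 29 (31.2%) did not overlap between genotypes, against 18.6% of all genes. All 5 lists were chosen with earlier results of these data known, so these shares are no independent evidence. Of these 29, 11 were among the genes activated and 6 among the genes repressed with Foxp3. An unmoderated test called 0 of the 93 as well.

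**Figure D3:**
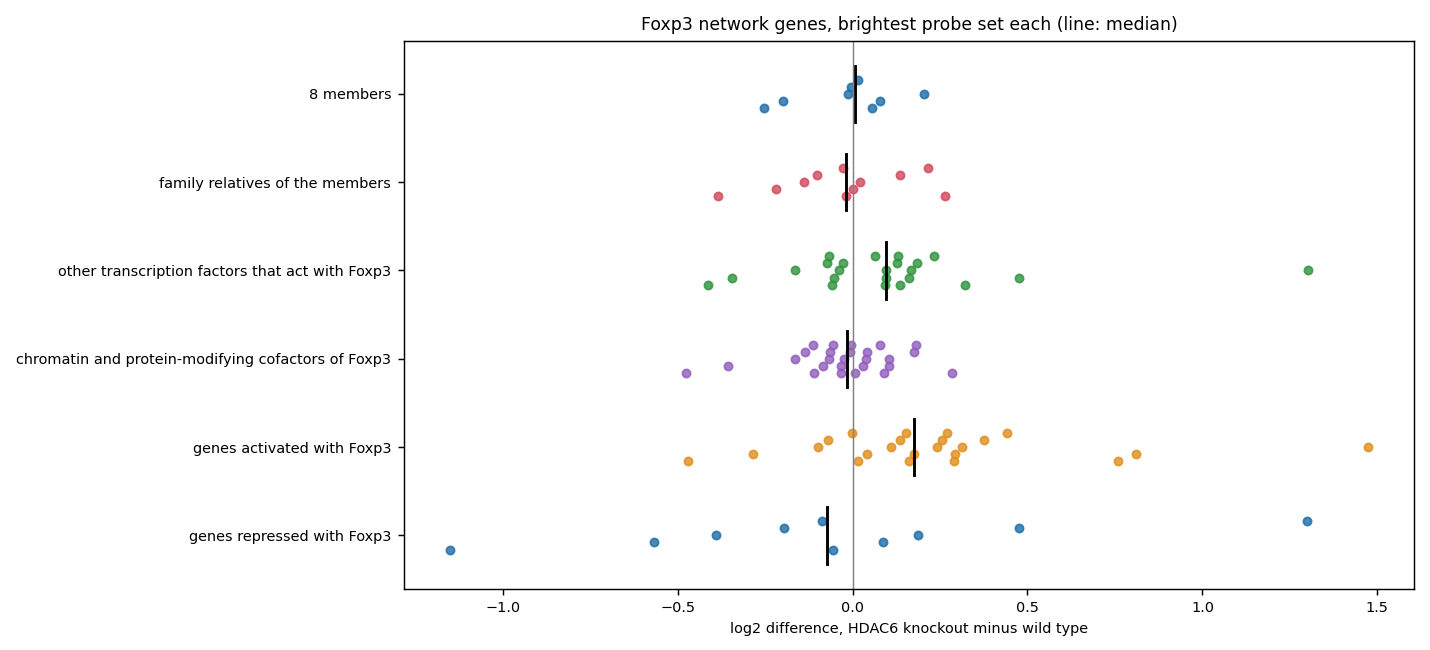
Log2 differences (horizontal axis, HDAC6 knockout minus wild type) of the 8 members and of the measured genes of 5 lists, 1 point per gene at its brightest probe set, with the median as a black line. The genes activated with Foxp3 have the highest median, 0.18, and the members lie between -0.25 and 0.20.

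Of 11 measured family relatives of the members, 5 were higher and 6 lower in HDAC6 knockout (median -0.02). Foxo1, the relative of Foxo3 that restrains effector programmes in T cells, differed by 0.02, Foxp1 by -0.02 and the founding family member Ikzf1 by 0.00. The Ikzf1 probe set had a mean of 6.23, near the arrays' medians. The ETS family members Gabpa and Fli1 were lower without passing. Gabpa read 9.01, 8.77 and 8.57 in HDAC6 knockout and 9.16, 9.35 and 8.98 in wild type (difference -0.38, SE 0.14, limma's adjusted p = 0.395). Fli1 differed by -0.22 (SE 0.11), or -0.13 without knockout replicate 3, Ets2 by -0.14 (SE 0.08) and Elf1 by -0.03 (SE 0.07). Erg and Elf4, at means under 6, differed by 0.26 and 0.22, or by 0.17 with wild type replicate 2 omitted for Erg and by 0.13 with knockout replicate 1 omitted for Elf4. Of the 11 relatives, Erg alone did not overlap between genotypes (9.09%, against 18.6% of all genes).

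Of 23 other transcription factors that act with Foxp3 or on its gene, 14 were higher and 9 lower (median 0.10). The genotypes did not overlap for 6 (26.1%, against 18.6% of all genes). Nfatc1, a calcium-regulated factor that works with Foxp3, read 9.60, 9.33 and 9.24 in HDAC6 knockout and 8.96, 8.95 and 8.82 in wild type (difference 0.48, SE 0.11, limma's adjusted p = 0.171). Rora, a nuclear receptor, read 8.92, 8.80 and 9.08 in HDAC6 knockout and 9.28, 9.40 and 9.36 in wild type (difference -0.41, SE 0.09, limma's adjusted p = 0.164). For both genes the genotypes did not overlap, yet neither passed over all probe sets. Bach2, a repressor that limits effector differentiation and is also high in B cells, read 9.28, 9.43 and 9.43 in HDAC6 knockout and 6.92, 8.59 and 8.72 in wild type. Wild type replicate 1 was the low array, and without it the difference of 1.30 was 0.72 (limma's adjusted p = 0.361 with all arrays). Nr4a2, which is induced by receptor signals and can activate the Foxp3 gene, differed by 0.23 (SE 0.08). Its mean of 6.02 lay below the arrays' medians. Stat5b, which carries the interleukin-2 signal to the Foxp3 gene, differed by -0.04 and Stat5a by 0.10.

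Of 26 chromatin and protein-modifying cofactors, 11 were higher and 15 lower (median -0.02). The genotypes did not overlap for 5 (19.2%), near the 18.6% of all genes. Kat2b, a lysine acetyltransferase, read 9.91, 9.90 and 9.89 in HDAC6 knockout and 10.64, 10.21 and 10.26 in wild type (difference -0.48, SE 0.12, limma's adjusted p = 0.225). All 3 knockout arrays were nearly equal and below every wild type array. Sirt1, a deacetylase known to act on the Foxp3 protein, differed by -0.36 (SE 0.14), or -0.20 without knockout replicate 3. Hdac7, which is known to bind Foxp3, differed by 0.17 (SE 0.09), or 0.10 without wild type replicate 2, and the maintenance methylation factor Uhrf1 by 0.28 (SE 0.15), or 0.12 without wild type replicate 3. Ctbp1, the co-repressor that Eos brings to Foxp3, differed by 0.01 (SE 0.07).

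Of 23 genes activated with Foxp3, 18 were higher and 5 lower in HDAC6 knockout (median 0.18, against 0.00 over all genes). The genotypes did not overlap for 11 (47.8%, against 18.6% of all genes), of which 9 were higher. This leaning of Treg genes was known when the list was chosen and is no independent evidence. Penk, which encodes the opioid precursor proenkephalin, read 9.83, 9.61 and 9.70 in HDAC6 knockout and 7.84, 8.01 and 8.87 in wild type (difference 1.47, SE 0.25, limma's adjusted p = 0.101). Wild type replicate 3 was the high wild type array, and without it Penk passed at 1.79 (limma's adjusted p = 0.00733). Without wild type replicate 1 the difference of Penk was 1.27 and did not pass. Il10, the suppressive cytokine, read 6.45, 6.28 and 6.60 in HDAC6 knockout and 5.38, 5.62 and 5.91 in wild type. Its wild type values lay below the arrays' medians. The semaphorin receptor Nrp1 read 10.52, 10.49 and 10.30 in HDAC6 knockout and 10.00, 10.11 and 10.08 in wild type. The orphan receptor Gpr83 went the other way, at 10.29, 10.22 and 10.23 in HDAC6 knockout and 10.72, 10.56 and 10.87 in wild type.

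Of 10 genes repressed with Foxp3, 4 were higher and 6 lower in HDAC6 knockout (median -0.07). The genotypes did not overlap for 6 (60%, against 18.6% of all genes), 3 in each direction. This list too was chosen with earlier results of these data known. Il7r, the interleukin-7 receptor, read 11.40, 11.14 and 11.27 in HDAC6 knockout and 11.88, 11.69 and 11.93 in wild type (difference -0.57, SE 0.10, limma's adjusted p = 0.107). The chromatin organizer Satb1 differed by -0.39 (SE 0.08) and the type 2 cytokine Il4 by -1.15 (SE 0.25), both without overlap. Il21, a cytokine of follicular helper cells, was higher and scattered, at 7.39, 6.72 and 5.87 in HDAC6 knockout and 5.39, 5.54 and 5.15 in wild type. Il2, the classic repressed target, differed by 0.19 (SE 0.10). Its mean of 6.05 and the wild type values of Il21 lay below the arrays' medians. Members of the list thus differed both ways, with no gene past the threshold.

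Markers of other cell types were measured beside these genes. The plasma cell list, which holds the secretory cell factors Xbp1 and Prdm1, was higher on every knockout array, at list means of 9.002 to 9.61 in HDAC6 knockout and 8.60 to 8.82 in wild type. All 5 of its measured genes were higher and 0 passed. Plasma cells can make Il10, and their part in the values above was not tested. The Treg list (Foxp3, Il2ra, Ctla4, Tnfrsf18 and Izumo1r) averaged 10.58 to 10.64 in HDAC6 knockout and 10.48 to 10.61 in wild type, and the T cell list 11.55 to 11.68 in HDAC6 knockout and 11.61 to 11.68 in wild type. For both lists the genotypes overlapped. Over the 6 arrays Pax5 (B cells) read 4.58 to 5.07, between the lower quartile and the median, while Cd79b and Ms4a1 of the same list read above the arrays' medians on every array. Itgam (myeloid cells) read 3.13 to 3.79, below the lower quartile, while Lyz2 of the same list read 6.45 to 7.92 and S100a8 6.22 to 9.75. Hba-a1 (red cells) read 3.65 to 3.91. The NK cell genes Nkg7, Eomes, Klrk1 and Prf1 read above the medians on every array, while Ncr1 of the same list read 4.53 to 5.55. Of the CD8 T cell genes, Cd8b1 read above the medians on every array and Cd8a below them, at 5.15 to 5.61.

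**Figure D4:**
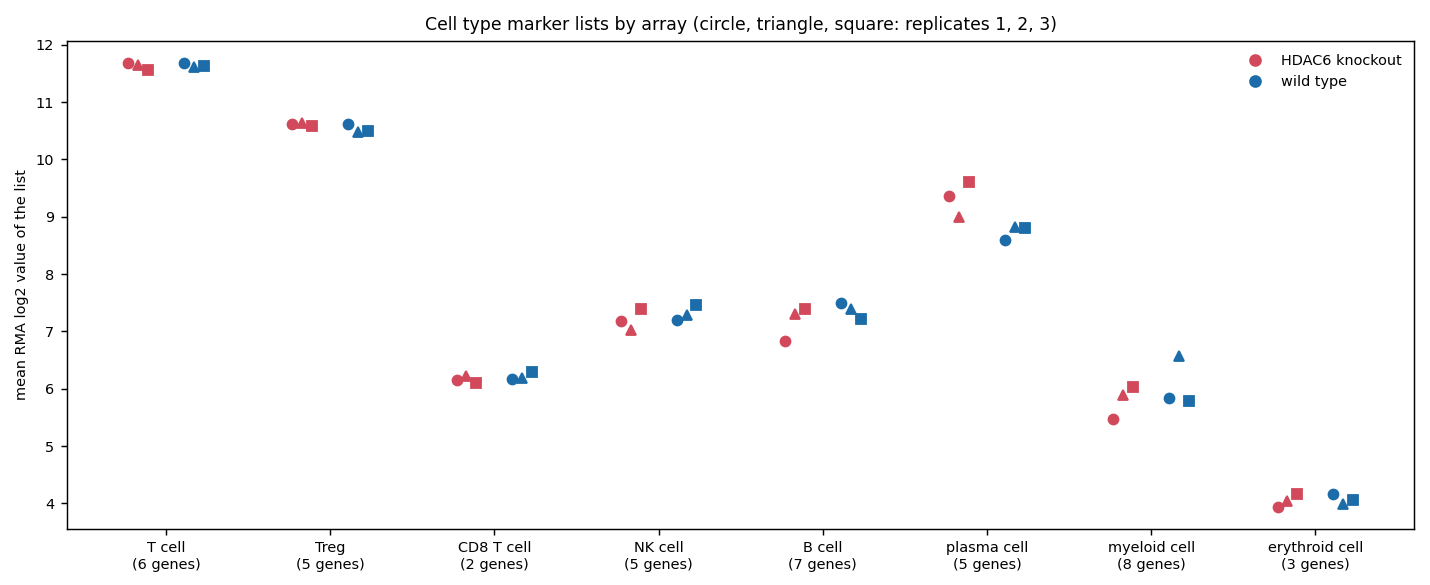
Mean RMA log2 value (vertical axis) of the measured genes of 8 marker lists on each HDAC6 knockout and wild type array. The plasma cell list is the 1 list whose knockout arrays all lie above the wild type arrays, and the myeloid list is highest on wild type replicate 2.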

How the data were processed

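The authors deposited 1 table of log2 expression values for 6 arrays, which per the submitters' processing notes came from RMA (version not given in the sources used here). The log2 scale was read from the values, 0 were missing, and no further normalization was applied. Per the labels' protocols, column-purified total RNA was amplified and biotin-labelled. The 64 control probe sets were left out. Names came from the platform annotation, updated through gene IDs (20351 found in RefSeq, GRCm38.p6), and 20380 probe sets named 1 gene.

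The test of HDAC6 knockout against wild type (3 arrays each) used limma 3.58.1 with R 4.3.3 (lmFit, eBayes, genotype only, two-sided, Benjamini-Hochberg over 22626 probe sets, threshold 0.05), after the fit was tested on simulated data. Intervals are 95% intervals, and errors are standard errors (SE). Figures used matplotlib 3.10.9. The members and lists were chosen with earlier results of these data known. Named were all member probe sets, Hdac6, Cd4, Cd3e and Il2ra, up to 4 genes per list by smallest p, and 5 genes most like Foxp3. Further listed genes and markers were picked with their values in view. As alternatives, the fit was repeated with quantile normalization, median centring, a replicate block, trend and robust settings, an unmoderated test, array weights, filters on dim probe sets (a mean of at least 6, the upper 60%), 1 probe set per gene, a threshold of 0.1 and leaving out each array.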

Additional observations from a re-analysis of the deposited data

How the results depend on the processing

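Under every alternative run, 0 member probe sets passed, and the smallest adjusted p was 0.151 (Ets1 1422027_a_at without wild type replicate 1). Of 275 recomputed member differences 261 had the same sign as reported and 14, in 6 probe sets, the opposite sign. Many of the 261 could not have differed. The replicate block, the trend and robust settings and the unmoderated test leave a difference unchanged. So do the filters, 1 probe set per gene and the threshold of 0.1. With array weights Runx3 was 0.018 and Cbfb 0.0051. Leaving out 1 array, Runx3 ranged from -0.13 to 0.091, Cbfb from -0.035 to 0.015, Foxo3 (1434831_a_at) from -0.060 to 0.081, Ikzf4 (1438274_at) from -0.0063 to 0.13, and Runx1 from -0.21 to 0.0080 (1452530_a_at) and from -0.19 to 0.32 (1452531_at). Over all probe sets 44 passed, against 147 with trend and robust settings, 86 with array weights, 121 at a threshold of 0.1, 21 with 1 probe set per gene, 0 in an unmoderated test (2239 at an unadjusted p under 0.05), and 5 to 51 leaving out 1 array (without knockout replicate 2 and wild type replicate 3). Of the listed genes 3 fell with trend and robust settings (Gpr83, Il7r and Satb1), and 0 to 1 passed leaving out 1 array (Penk, without wild type replicate 3). Hdac6 passed with trend and robust settings (adjusted p = 0.0259). The genotypes share replicate numbers, but the labels do not say that the numbers pair the arrays. Deviations of same-numbered arrays correlated at 0.22, -0.09 and 0.10, and not every array correlated best with its own number. With 3 arrays per genotype these values cannot decide whether the arrays were paired. With the replicate block 27 probe sets and 0 member probe sets passed, and 2711 had an unadjusted p under 0.05, against 2403 without it.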
